A study of Mus musculus with 4 samples.

Results

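Of the 1809 mature mouse miRNAs listed for all 4 libraries, 6 are described here: mmu-miR-191-5p, mmu-miR-425-5p, mmu-miR-423-5p, mmu-miR-423-3p, mmu-miR-320-3p and mmu-miR-484. They were picked by name, because they often serve as reference miRNAs in plasma or because their precursors are made without Drosha, and the rule uses no measured value. Small RNA was sequenced from exosome preparations that a precipitation reagent had pulled down from plasma. The donors were C57BL/6 mice, all of which had been given LLC (Lewis lung cancer) cells, an established mouse line that grows as a transplanted tumour, into a vein, and they were killed on day 21. They were either wild type (WT) or gp49B-/- (gp49B KO), which lack an inhibitory receptor of myeloid cells. Each genotype had 2 libraries, labelled pool 1 and pool 2, and every library combined plasma samples: 3 for WT and 4 for KO, which cannot be told apart from genotype. The labels do not say what a pool number stands for or how old the mice were, and tumour-free mice were not analysed here.

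A reference miRNA is one whose level is assumed not to move between samples, so that others can be read relative to it. Most miRNAs are cut from a long primary transcript by Drosha and then by Dicer, and 1 arm of the hairpin is usually kept in far larger amounts than the other. miR-191 and miR-425 come from neighbouring hairpins, and the arms of miR-423 come from a single hairpin. The precursors of miR-320 and miR-484 are transcribed directly as short capped hairpins, skip Drosha and still need Dicer. In vesicles from plasma, a lower value can mean fewer vesicles of a kind or fewer molecules in each, and these cannot be told apart.

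The mature sequences are shown because miRNAs with the same seed share targets; the seed is the stretch from base 2 to base 8 that pairs with targets. Of the 6, 5 were matched in the RefSeq table for GRCm38.p6, and they are given 5′ to 3′ with the seed in capitals:
miR-191-5p: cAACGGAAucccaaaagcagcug
miR-425-5p: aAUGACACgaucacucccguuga
miR-423-5p: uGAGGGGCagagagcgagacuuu
miR-423-3p: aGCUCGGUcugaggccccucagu
miR-484: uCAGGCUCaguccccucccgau
Among these 5, the number of pairs that share a seed was 0. The seed of miR-425-5p is also that of miR-489-3p, which had 27 and 14 UMIs in WT (pool 1, then pool 2) and 28 and 14 in KO. The seed of miR-423-5p is also that of miR-6921-5p, with 70, 36, 42 and 41 UMIs in the same order. For the other 3 sequences no other mature miRNA of the table has the seed.

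The genes lie on 4 chromosomes of GRCm38, at the positions given in the deposited files. miR-191-5p (chr9:108568325-108568347, plus strand) and miR-425-5p (chr9:108568789-108568811, plus strand) both lie in an exon of 4833445I07Rik, a long noncoding RNA gene, with 384 bases between their hairpins. miR-423-5p (chr11:77078122-77078144) and miR-423-3p (chr11:77078086-77078108) lie on the minus strand in an intron of Nsrp1, which runs on the same strand. miR-320-3p (chr14:70443557-70443578, plus strand) overlaps no annotated gene other than its own and lies 110 bases from the start of Polr3d, an RNA polymerase III subunit gene on the opposite strand. miR-484 (chr16:14159630-14159651, plus strand) lies in an intron of Marf1 on the opposite strand, and the nearest protein-coding start, that of Nde1, is 3624 bases away. The hairpin of miR-423, shown because both of its arms are members, is 109 bases long, and that of miR-484, a Drosha-independent precursor, is 67. They are given with the mature arms in capitals:
Mir423: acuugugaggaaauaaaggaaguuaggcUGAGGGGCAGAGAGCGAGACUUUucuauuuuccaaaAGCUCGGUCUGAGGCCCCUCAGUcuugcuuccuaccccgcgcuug
Mir484: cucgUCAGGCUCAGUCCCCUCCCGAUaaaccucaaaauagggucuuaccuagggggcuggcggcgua

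Molecules were counted by their unique molecular identifiers (UMIs), random tags added before amplification. Total UMIs ranged from 1607218 to 1729201 in the pool 1 libraries and from 3179081 to 3645842 in the pool 2 libraries. Pool 1 was sequenced to 5.29 and 5.70 reads per UMI, and pool 2 to 1.69 and 2.11. The 10 most abundant miRNAs took 67.5% and 60.6% of miRNA UMIs in pool 1 (WT, KO) and 80.2% and 77.5% in pool 2. The 1457 miRNAs with a mean under 100 UMIs took 4.14% and 3.52% in pool 1 and 1.38% and 1.62% in pool 2. The libraries thus differed in make-up by pool number, and every value that compares libraries below is given with its scaling. The scalings used throughout were the total miRNA UMIs, which gives a share, and TMM, which sets the typical log ratio of all miRNAs to 0 and is reported as CPM, counts at a common library size.

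mmu-miR-191-5p, the most abundant of the 6, had 15140 UMIs in WT and 16246 in KO in the pool 1 libraries, and 32543 and 32419 in those of pool 2. Values are given from here on in the order WT pool 1, WT pool 2, KO pool 1, KO pool 2. Its shares of miRNA UMIs were 0.960%, 1.03%, 0.950% and 0.893%. The highest share was 1.15 times the lowest, and its place among all miRNAs by count ran from 11 to 19. Both KO shares lay below both WT shares (0.922% ± 0.0405 against 0.993% ± 0.0473, SD, n = 2 each), and with total scaling 2.11% of the 1797 miRNAs tested were separated in that direction (3.28% in the other and 5.4% in either). In CPM after TMM scaling the values were 5658, 17888, 6324 and 13059, so both pool 2 libraries lay above both pool 1 libraries and the genotypes overlapped.

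miR-423-5p, a miRNA studied in plasma in heart failure as well as used as a reference, came next. mmu-miR-423-5p had 4827, 8234, 4523 and 12731 UMIs, or 0.306%, 0.260%, 0.265% and 0.351% of miRNA UMIs. KO pool 2 was the highest and WT pool 2 the lowest, so neither genotypes nor pool numbers were separated, and the highest share was 1.35 times the lowest. mmu-miR-425-5p, the neighbour of miR-191-5p, had 1569, 3613, 2142 and 3865 UMIs. Its shares of 0.0994%, 0.114%, 0.125% and 0.106% were highest in KO pool 1 and lowest in WT pool 1, with a ratio of 1.26 between them and no separation of genotypes or pool numbers.

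mmu-miR-320-3p, the major arm of a Drosha-independent hairpin, had 2064, 2190, 2547 and 2915 UMIs. These counts lay close together while the library totals were 2.01 (WT) and 2.12 (KO) times as large in pool 2, and its shares were 0.131%, 0.0691%, 0.149% and 0.0803%. Both pool 1 shares lay above both pool 2 shares, with a ratio of 2.16 between the highest and the lowest, the widest of the 6. mmu-miR-484, the other Drosha-independent member, had 966, 1156, 875 and 1420 UMIs, which were 0.0612%, 0.0365%, 0.0512% and 0.0391%. mmu-miR-423-3p, the less abundant arm of miR-423, had 676, 882, 716 and 925 UMIs, or 0.0428%, 0.0278%, 0.0419% and 0.0255%. For both miR-484 and miR-423-3p the pool 1 shares lay above the pool 2 shares, the genotypes overlapped, and the highest share was 1.68 times the lowest. As shares, 88.5% of the 1797 miRNAs tested were separated in this way, lower in both pool 2 libraries (89.6% in either direction), against 3 of the 6 members.

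**Figure D1:**
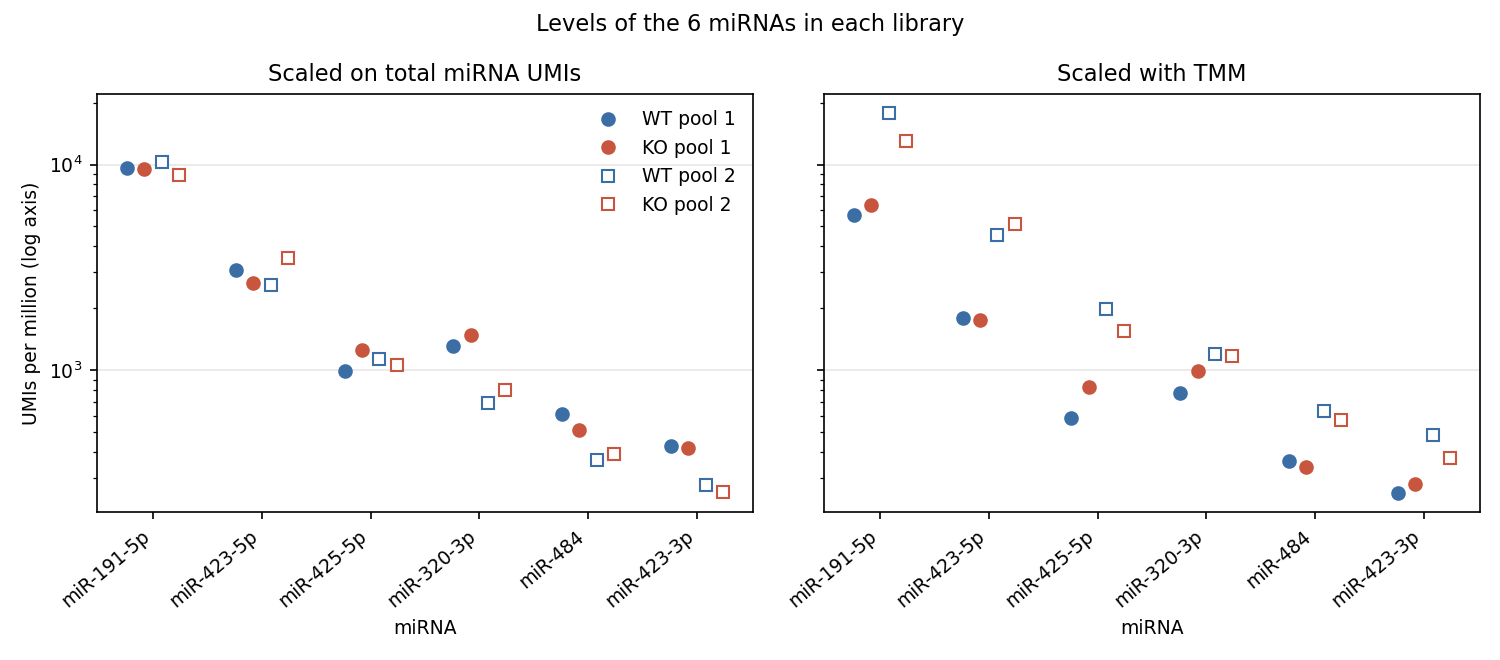
Level of each of the 6 miRNAs in each library, as a share of miRNA UMIs and as CPM after TMM scaling, both on log axes; each point is 1 library, coloured by genotype and shaped by pool number. miR-191-5p stays between 0.893% and 1.03% in shares and spreads from 5658 to 17888 CPM after TMM scaling, while miR-320-3p spreads from 0.0691% to 0.149% in shares and only from 771 to 1204 CPM.

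Together the 6 miRNAs took 1.60%, 1.53%, 1.58% and 1.495% of miRNA UMIs. The exact 95% binomial intervals were 1.58 to 1.62%, 1.52 to 1.55%, 1.56 to 1.60% and 1.48 to 1.51%. Such intervals cover counting error only. miR-191-5p alone made up 60.0%, 66.9%, 60.1% and 59.7% of that sum. The combined share was 1.57% ± 0.0469 in WT and 1.54% ± 0.0615 in KO (SD, n = 2 each), a difference of -0.0281 percentage points. The two-sided exact permutation p was 0.667, and 2 against 2 libraries cannot give less than 0.333. With miR-16-5p of blood cells and miR-122-5p of hepatocytes, which led the libraries, taken out of the total, the combined shares became 2.96%, 3.16%, 2.49% and 2.89%. Both KO libraries then lay below both WT libraries, by 0.370 percentage points on average (-0.370 for KO minus WT, exact permutation p = 0.333), where with them in the total the genotypes overlapped.

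The question put by the study's design is whether gp49B KO differs from WT, and for a reference miRNA the wanted answer is no difference. None of the 6 was called: after TMM scaling the edgeR quasi-likelihood test with Benjamini-Hochberg adjustment called 0 of 1797 miRNAs, 0%, and the 2 genotypes overlapped for all 6, where 21.1% of miRNAs were separated (9.52% higher and 11.6% lower in KO). Of the 1797, 32 had an unadjusted p under 0.05. Limma-voom, with 27 such miRNAs, and DESeq2, with 28, made 0 calls too. The KO over WT log2 fold changes were 0.13 (SE 0.63) for miR-320-3p, 0.12 (SE 0.82) for miR-423-5p, -0.11 (SE 0.75) for miR-425-5p, -0.13 (SE 0.61) for miR-484, -0.18 (SE 0.59) for miR-423-3p and -0.28 (SE 0.91) for miR-191-5p. All 6 had an adjusted p of 0.99995 in that edgeR test. These values do not show that the miRNAs were equal in the 2 genotypes. The 95% interval of miR-191-5p ran from -2.29 to 1.73. The narrowest, that of miR-423-3p, ran from -1.48 to 1.12, so differences of more than 2-fold in either direction lay within every interval of this fit. Pool number was not in this fit, so its spread takes in the pool difference. With pool number as a block, edgeR's common dispersion, its measure of spread, was 0.0422, against 0.127 without. Intervals of that blocked fit are not given here. In a simulation with the same 1797 miRNAs, edgeR recovered 0.5% of 2-fold changes, 59% of 4-fold and 96.5% of 8-fold changes, with 0, 5 and 9 false calls. The simulation gave every miRNA the same dispersion and no pool difference, unlike the libraries here. These rates are therefore not those of the members.

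Within pool numbers the direction of the genotype difference was not the same for every member. Each pool number holds 1 library per genotype, so the difference between pool numbers was not tested. miR-191-5p had a KO over WT ratio of 1.12 in pool 1 (exact 95% interval 1.09 to 1.14) and 0.730 in pool 2 (0.719 to 0.741) after TMM scaling. miR-425-5p showed the same turn, at 1.42 (1.33 to 1.52) and 0.784 (0.749 to 0.821). miR-423-5p ran the other way, at 0.976 (0.937 to 1.02) and 1.13 (1.10 to 1.17). The ratio of miR-423-3p was 1.10 (0.992 to 1.23) in pool 1, and in pool 2 it was 0.769 (0.700 to 0.844). For miR-320-3p it was 1.29 (1.21 to 1.36) and 0.975 (0.923 to 1.03), and for miR-484 0.944 (0.860 to 1.04) and 0.900 (0.832 to 0.974).

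As shares, the same ratios changed for several members. miR-191-5p stood at 0.990 (0.969 to 1.01) in pool 1 and 0.870 (0.857 to 0.883) in pool 2. miR-423-5p then differed most between pool numbers, at 0.865 (0.830 to 0.901) and 1.35 (1.31 to 1.39), while miR-425-5p stood at 1.26 (1.18 to 1.35) and 0.934 (0.893 to 0.978). miR-320-3p was above 1 in both pools, at 1.14 (1.07 to 1.21) and 1.16 (1.10 to 1.23), the only member whose interval lay on the same side of 1 in each. miR-484 stood at 0.836 (0.762 to 0.917) and 1.07 (0.992 to 1.16), and miR-423-3p at 0.977 (0.879 to 1.09) and 0.916 (0.834 to 1.01). The intervals cover counting error in 1 library against 1, not the spread between pools of plasma.

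**Figure D2:**
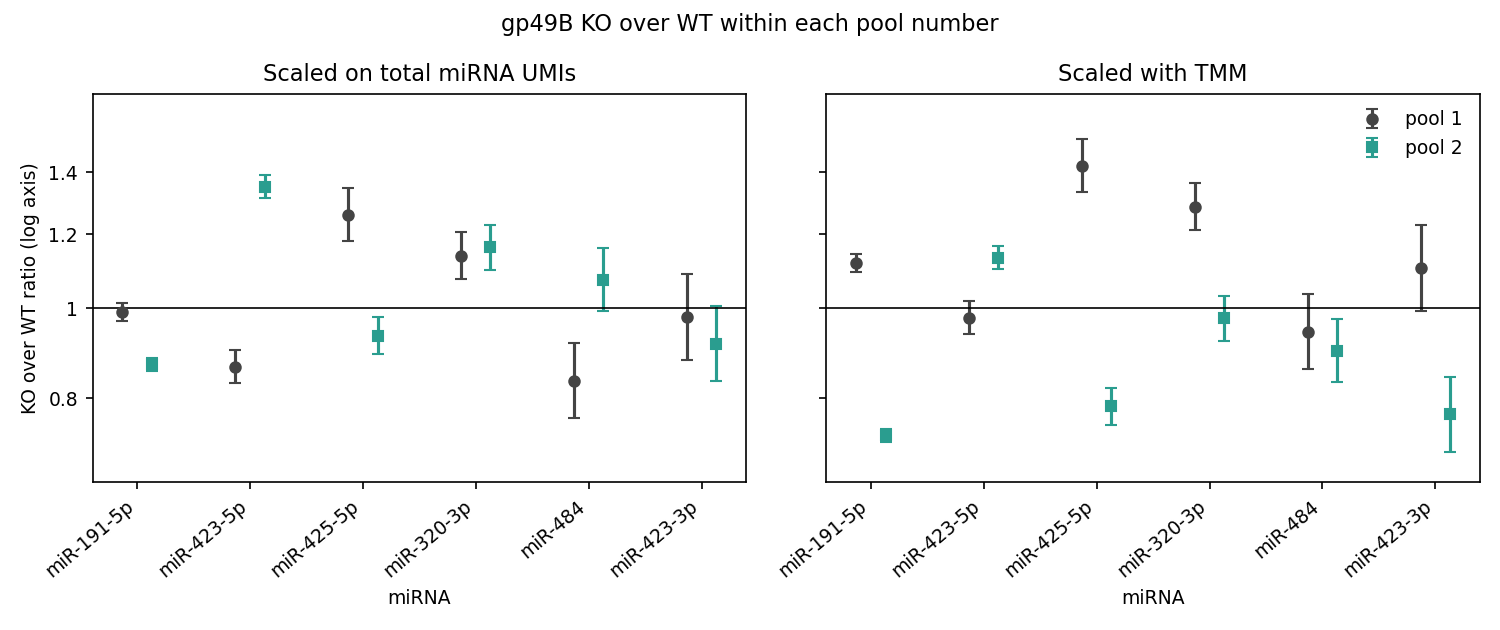
KO over WT ratio of each of the 6 miRNAs within pool 1 and within pool 2, scaled on total miRNA UMIs or with TMM, on a log axis; bars are exact 95% intervals for counting error. With TMM scaling the pool 1 and pool 2 ratios of miR-191-5p (1.12 and 0.730) and miR-425-5p (1.42 and 0.784) lie on opposite sides of 1 with both intervals clear of it, and on shares those of miR-425-5p and miR-423-5p do.

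Stability between libraries turned on the pool number and on the scaling. After TMM scaling all 6 miRNAs were higher in both pool 2 libraries than in both pool 1 libraries, where 28.7% of the 1797 miRNAs were separated in that direction. With genotype in the model, the pool 2 over pool 1 log2 fold change was 1.43 for miR-423-5p (SE 0.28, adjusted p = 0.0605), 1.35 for miR-191-5p (SE 0.30, adjusted p = 0.0695) and 1.33 for miR-425-5p (SE 0.34, adjusted p = 0.0924). It was 0.78 for miR-484 (SE 0.27, adjusted p = 0.147), 0.68 for miR-423-3p (SE 0.28, adjusted p = 0.206) and 0.44 for miR-320-3p (SE 0.29, adjusted p = 0.381). None of the 6 passed in this edgeR quasi-likelihood test with Benjamini-Hochberg adjustment, which called 57 of 1797, or 3.17% (1.95% higher and 1.22% lower in pool 2). miR-191-5p and miR-423-5p did pass with DESeq2-type size factors (edgeR adjusted p = 0.0388 and 0.0332), with read counts (0.0478 and 0.0253) and among the miRNAs that averaged 100 UMIs or more (0.0290 and 0.0330). These fits called 8.35%, 7.19% and 38.6% of the miRNAs they tested. Without WT pool 1, with genotype left out of the fit, miR-191-5p, miR-425-5p and miR-423-5p passed (edgeR adjusted p = 0.00724, 0.0135 and 0.00180), and so they did without KO pool 1 (0.00206, 0.00105 and 0.00164) but not without WT pool 2 or KO pool 2. The fits without WT pool 1 and without KO pool 1 called 11.4% and 13.7% of all miRNAs tested.

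Scaled on total miRNA UMIs, the same contrast gave log2 fold changes of 0.00 for miR-191-5p (95% interval -0.64 to 0.65), -0.02 for miR-425-5p (-0.71 to 0.67) and 0.09 for miR-423-5p (-0.59 to 0.76). miR-320-3p fell by 0.91 (-0.91, SE 0.35, edgeR adjusted p = 0.0174) and was the only member called, where 73.2% of 1797 miRNAs were called (72.8% as lower and 0.445% as higher in pool 2). The values were -0.67 for miR-423-3p (edgeR adjusted p = 0.0697) and -0.57 for miR-484 (edgeR adjusted p = 0.128). The fits also differed in how far edgeR drew on the other miRNAs for the spread. For miR-320-3p the 95% interval was -1.60 to -0.21 at an SE of 0.35 on totals. With TMM it was wider, -0.29 to 1.18, at a smaller SE of 0.29. The part of this in the number of calls was not tested. Against the median of all miRNAs tested, which was -1.37 with total scaling and -0.03 with TMM, every member lay above it under both scalings. The miRNAs that averaged 100 UMIs or more, as all 6 members did, had medians of -1.005 and 0.343. miR-320-3p, at -0.91 and 0.44, lay only a little above these. In the plot of the pool contrast the 6 keep their order and shift as a block between the scalings. A change of scaling moves every miRNA by about the same amount, so the scalings are not separate observations of this order.

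**Figure D3:**
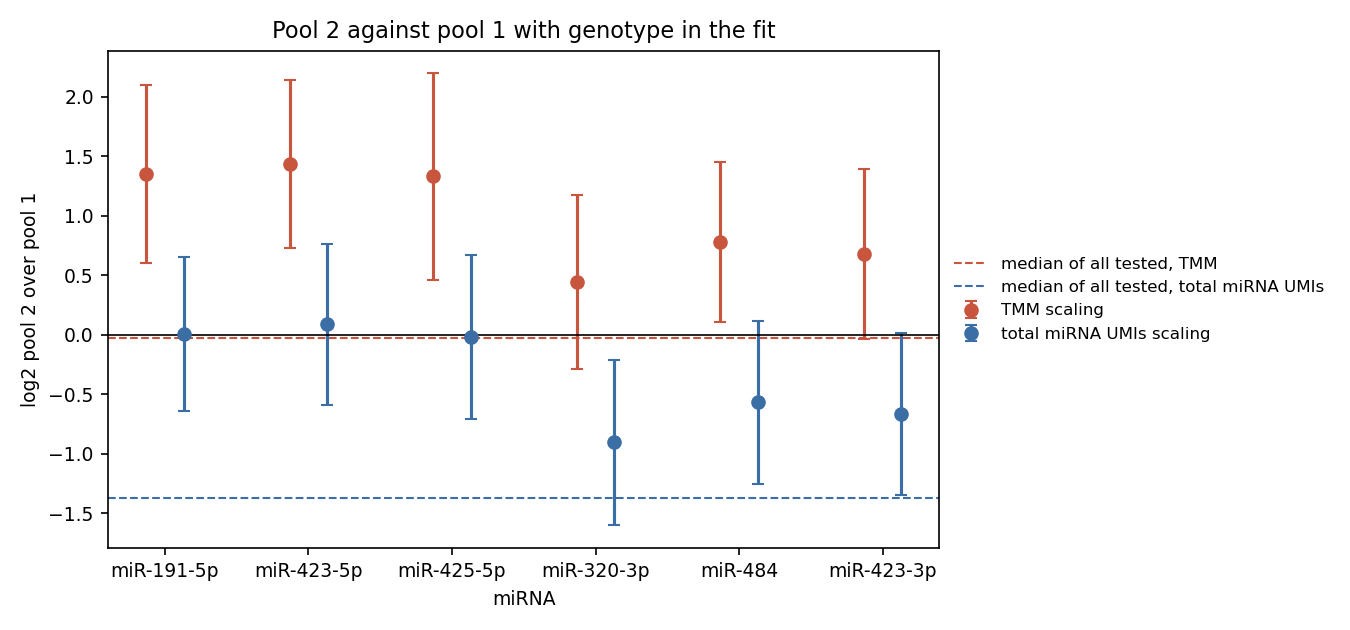
Pool 2 over pool 1 log2 fold change of each of the 6 miRNAs from edgeR with genotype in the model, with 95% intervals, after TMM scaling and on total miRNA UMIs. With TMM the values run from 0.44 to 1.43 and on totals from -0.91 to 0.09, with miR-320-3p lowest in each.

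The pool numbers also differed in miRNAs that mark cell types, all of which were above 0 in every library. The 5 red blood cell miRNAs took 10.6% and 7.94% of miRNA UMIs in pool 1 (WT, KO) and 18.4% and 17.8% in pool 2. Most of that sum was miR-486b-5p (8.49% and 6.35% against 15.7% and 15.02%), while miR-144-3p was lower in both pool 2 libraries (0.0321% and 0.0125% against 0.00757% and 0.00986%) and miR-144-5p overlapped. The 2 arms of the hepatocyte miRNA miR-122 took 10.6% and 7.06% against 26.6% and 19.7%, nearly all of it miR-122-5p, while miR-122-3p was lower in both pool 2 libraries (0.00273% and 0.00129% against 0.00107% and 0.00116%, from 22 to 43 UMIs). The 2 arms of the myeloid miRNA miR-223 took 1.59% and 3.91% against 0.716% and 0.615%, and those of miR-126a, from platelets and endothelium, took 0.587% and 0.922% against 0.339% in both pool 2 libraries. The log2 ratio of miR-451a to miR-23a-3p, often read as an index of red cell lysis, was -1.45 and -2.53 in pool 1 and -0.04 and -0.31 in pool 2. The part of red cell, liver and myeloid RNA, of reads per UMI, and of depth in the pool differences of the 6 miRNAs was not tested.

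The spread over the 4 libraries, the usual yardstick of a reference, ranked the 6 in nearly opposite orders under the 2 scalings. On shares the SD of log2 CPM was 0.08 for miR-191-5p, and 1 of the 352 miRNAs that averaged 100 UMIs or more, miR-1198-5p, had a smaller one. miR-425-5p (SD 0.14, 10 smaller) and miR-423-5p (SD 0.20, 21 smaller) followed. miR-484 (SD 0.35), miR-423-3p (SD 0.39) and miR-320-3p (SD 0.54) varied more, against a median of 0.67 over the 352. After TMM scaling the SD was 0.30 for miR-320-3p with 88 of 352 smaller, 0.42 for miR-423-3p with 160 smaller and 0.46 for miR-484 with 175 smaller. It was 0.81 for both miR-191-5p and miR-425-5p, with 295 and 296 smaller, and 0.83 for miR-423-5p with 304 smaller, against a median of 0.46.

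With TMM computed only on the 352 more abundant miRNAs, a choice made after the data were seen, the SD of miR-320-3p was 0.08 and 4 miRNAs had a smaller one. That of miR-423-3p was 0.18, of miR-484 0.20, of miR-425-5p 0.51, of miR-191-5p 0.52 and of miR-423-5p 0.55. From shares to TMM over all miRNAs the SD of miR-320-3p dropped and that of each of the other 5 increased, from 0.35 to 0.46 for miR-484 and from 0.39 to 0.42 for miR-423-3p. Without WT pool 1, the SD of miR-320-3p after TMM scaling dropped to 0.15.

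**Figure D4:**
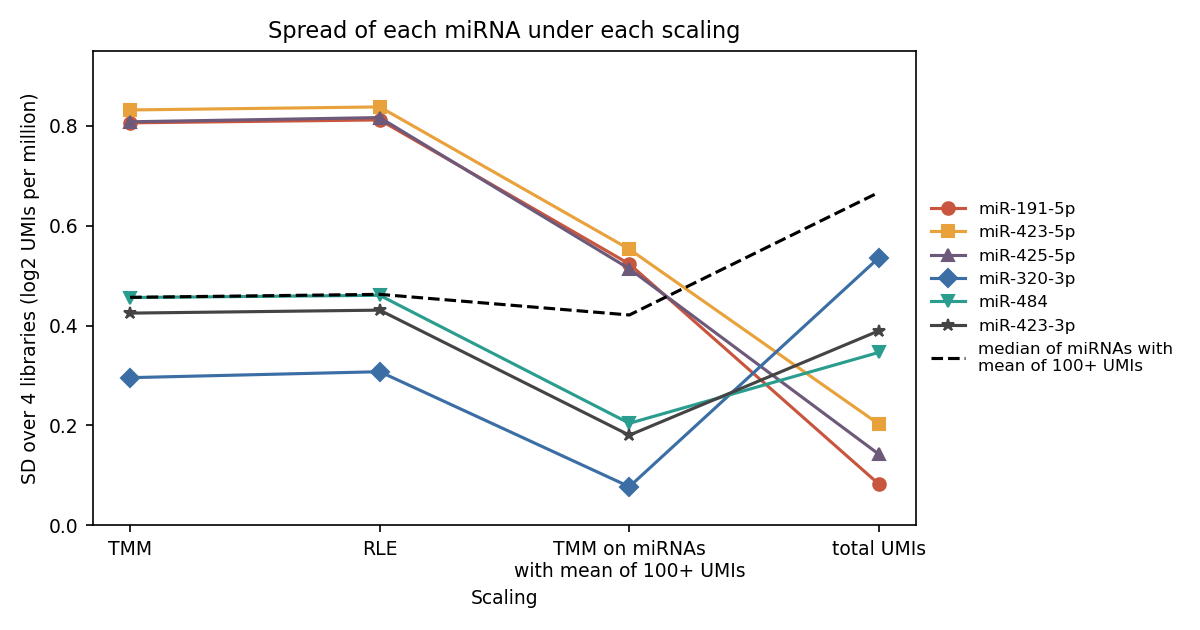
SD of log2 CPM over the 4 libraries for each of the 6 miRNAs under 4 scalings: TMM, DESeq2-type size factors (RLE), TMM on the 352 more abundant miRNAs, and totals. The dashed line is the median over the 352 miRNAs that averaged 100 UMIs or more, and lines only join the same miRNA. miR-191-5p goes from 0.81 with TMM to 0.08 on totals, and miR-320-3p from 0.30 to 0.54.

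Next to 16 other miRNAs used as references in blood, among them let-7a-5p, miR-16-5p and miR-103-3p, the members stood out in different ways by scaling. On shares 0 of the 16 had a smaller SD than miR-191-5p or miR-425-5p, the nearest being miR-103-3p at 0.15, and 11 had a smaller SD than miR-320-3p. After TMM scaling 14 had a smaller SD than miR-191-5p, and 1, miR-361-5p at 0.22, had a smaller one than miR-320-3p. The median SD was 0.28 on shares and 0.58 with TMM over the 16, and 0.27 and 0.63 over the 6. Between genotypes 8 of the 16 were higher and 8 lower in KO, with 0 called and a median log2 fold change of 0.06. Between pool numbers after TMM scaling 15 of 16 were higher in pool 2 with 1 called, miR-93-5p of the miR-17 family (log2 1.57, edgeR adjusted p = 0.0496), and the median was 0.94, where 860 of 1797 miRNAs were higher and 3.17% were called. On shares 14 of 16 were lower in pool 2 and 6 were called: miR-24-3p, miR-23a-3p, miR-126a-3p, miR-361-5p, miR-26a-5p and miR-221-3p, with log2 values from -1.80 for miR-24-3p to -0.80 for miR-221-3p. Of all 1797 miRNAs 1723 were lower on shares and 72.8% were called lower.

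miR-320-3p and miR-484 skip Drosha, so other miRNAs made outside the usual route were set beside them: both arms of the mirtrons miR-877, miR-1224 and miR-702, which are released by splicing, and miR-451a, which needs Drosha but is cut by Ago2 in place of Dicer. They were rare apart from miR-451a. Both arms of the mirtrons had between 7 UMIs, for miR-1224-3p in WT pool 2, and 234, for miR-1224-5p in KO pool 2, while miR-451a of red cells had 2938, 7281, 2396 and 8636 UMIs. Of the 7, 6 were higher and 1 lower in KO with 0 called, and the median log2 fold change was 0.22. Between pool numbers on shares the 6 mirtron arms were called lower in pool 2, or 6 of 7 where 72.8% of all miRNAs tested were, and miR-451a was not called (log2 0.53, edgeR adjusted p = 0.153). After TMM scaling 4 were higher and 3 lower, and 1, miR-451a, was called higher (log2 1.88, edgeR adjusted p = 0.0445).

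A ratio of 2 miRNAs within a library needs no scaling between libraries, and the 15 pairs of members were compared in that way. The most constant was miR-423-3p over miR-484, at 0.700, 0.763, 0.818 and 0.651. Its log2 SD was 0.14, and 2.03% of the 61776 pairs among the 352 more abundant miRNAs had a smaller one. miR-191-5p over miR-425-5p, from neighbouring hairpins, was nearly as constant at 9.65, 9.01, 7.58 and 8.39, with an SD of 0.15 and 2.22% of pairs smaller. Which pair was most constant was not stable: miR-191-5p over miR-425-5p had the smaller SD with read counts (0.148 against 0.170) and without WT pool 1 (0.125 against 0.169). Without KO pool 1 the smallest SD was that of miR-320-3p over miR-484, at 0.0884, and without WT pool 2 that of miR-423-3p over miR-320-3p, at 0.116. Both KO ratios of miR-191-5p over miR-425-5p lay below both WT ratios, and the exact permutation p was 0.333 before and 1 after adjustment over the 15 pairs. The median SD was 0.39 over the member pairs and 0.62 over all 61776.

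The 3 pairs that varied most all held miR-320-3p. miR-423-5p over miR-320-3p was 2.34, 3.76, 1.78 and 4.37, with an SD of 0.60 and 47.6% of pairs smaller, and miR-191-5p over miR-320-3p was 7.34, 14.9, 6.38 and 11.1, with an SD of 0.56. In each, both pool 2 ratios lay above both pool 1 ratios. miR-425-5p over miR-320-3p, at 0.760, 1.65, 0.841 and 1.33, was the only one of the 15 pairs whose order changed: miR-320-3p had more UMIs in pool 1 and miR-425-5p more in pool 2. Averaged over its 5 pairs, the SD was lowest for miR-484 (0.318), then miR-423-3p (0.330), miR-191-5p (0.348), miR-425-5p (0.361), miR-423-5p (0.418) and miR-320-3p (0.436). No pair passed a two-sided exact permutation test of KO against WT, whose smallest possible p is 0.333.

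**Figure D5:**
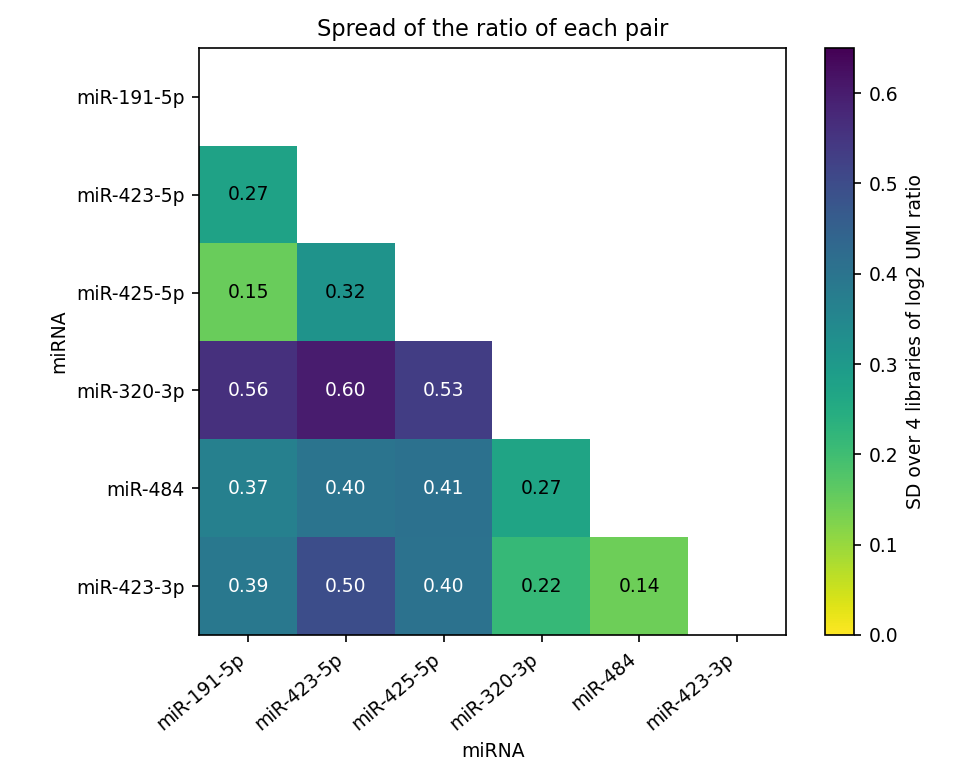
SD over the 4 libraries of the log2 ratio of each of the 15 pairs of the 6 miRNAs. Values run from 0.14 for miR-423-3p over miR-484 and 0.15 for miR-191-5p over miR-425-5p to 0.60 for miR-423-5p over miR-320-3p.

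The arms of miR-423 are cut from the same hairpin, yet their ratio was not constant. miR-423-5p over miR-423-3p was 7.14, 9.34, 6.32 and 13.8, with a log2 SD of 0.50. Both pool 2 ratios lay above both pool 1 ratios, and without KO pool 2 the SD was 0.29. The partner arms of the other members were scarce. miR-191-3p had 134, 111, 162 and 131 UMIs, and the ratio of the 5p to the 3p arm was 113, 293, 100 and 247. miR-425-3p had 151, 153, 135 and 158 UMIs, and its ratio was 10.4, 23.6, 15.9 and 24.5. The log2 SD was 0.78 for the miR-191 ratio and 0.58 for that of miR-425, both larger than for miR-423. In these 3 hairpins the ratio of the more abundant arm to its partner was thus higher in both pool 2 libraries than in both pool 1 libraries. So it was in 45.1% of the 213 hairpins whose arms were both tested and above 0 in all libraries and whose more abundant arm averaged 100 UMIs or more. miR-320-5p had 113, 63, 96 and 152 UMIs, and the ratio of miR-320-3p to it, at 18.3, 34.8, 26.5 and 19.2, followed neither pool number nor genotype.

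Each member was also read against the geometric mean of the other 5, as it would be if they were its references. miR-320-3p then came out 1.17 times higher in KO in pool 1 and 1.15 times in pool 2, and it was the only member higher in both. miR-191-5p stood at 0.988 and 0.809 and miR-423-3p at 0.972 and 0.860, below 1 in both. miR-425-5p was at 1.32 and 0.881, miR-423-5p at 0.839 and 1.37, and miR-484 at 0.806 and 1.04, on both sides of 1. With read counts in place of UMIs the mean difference over both pools kept its direction for all 6.

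Reads per UMI set 1 member apart. For miR-423-5p it was 0.863 to 0.944 of the library's own value in all 4 libraries. miR-484 lay at 0.982 to 1.02, miR-320-3p at 0.999 to 1.10, miR-191-5p at 1.00 to 1.15, miR-425-5p at 1.01 to 1.15 and miR-423-3p at 1.02 to 1.15. In reads, miR-191-5p took 1.10%, 1.03%, 1.08% and 0.917% of all miRNA reads, against 0.960%, 1.03%, 0.950% and 0.893% of UMIs.

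Used as references, the 6 set the relative sizes of the libraries between those of the other scalings. Their geometric mean was 2317, 3596, 2512 and 4275 UMIs. By it the WT pool 2 library was 1.55 times the size of WT pool 1, against 2.01 times by total UMIs and 0.680 times by TMM. Between genotypes the scalings differed less: KO over WT was 1.08 in pool 1 by the members and by totals and 0.960 by TMM, and 1.19, 1.15 and 1.36 in pool 2. Scaled on the members, the edgeR quasi-likelihood test with Benjamini-Hochberg adjustment called 983 of 1797 miRNAs between pool numbers, or 54.7% (1.06% higher and 53.6% lower in pool 2).

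Between genotypes the test scaled on the 6 members called 1 of 1797 miRNAs, or 0.0556%, and 7 had an unadjusted p under 0.05. It was miR-206-3p of skeletal muscle, named after its values were seen, with 1305, 5392, 26116 and 14940 UMIs. Its log2 fold change was 2.75 (SE 0.60, edgeR adjusted p = 0.00759), against 2.94 on totals (SE 0.70, edgeR adjusted p = 0.0548) and 2.23 with TMM (SE 0.96, edgeR adjusted p = 0.99995). Its shares of 0.0827%, 0.170%, 1.53% and 0.412% also differed within each genotype. As in the pool contrast, these fits differed in how far edgeR drew on the other miRNAs for the spread. The part of this in the call was not tested, so the call cannot be put down to the choice of references alone. With any 5 of the 6 as references miR-206-3p was called each time (edgeR adjusted p from 0.00626 to 0.0105), joined by miR-1b-5p when miR-191-5p, miR-425-5p or miR-423-5p was the one left out. With a single reference it was called on miR-191-5p (edgeR adjusted p = 0.0114) and not on any of the other 5 (0.0891 to 1). It was also not called without WT pool 1, WT pool 2 or KO pool 1 (edgeR adjusted p = 0.997, 0.492 and 0.999), and without KO pool 2 it was called together with miR-1a-3p and miR-1b-5p. The 3 skeletal muscle miRNAs, miR-206-3p among them, took 0.153%, 0.261%, 1.96% and 0.497% of miRNA UMIs, and the part of muscle RNA in this call was not tested.

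For each member the 3 miRNAs with the most similar profile over the 4 libraries were found among the other 351 with a mean of 100 or more UMIs, by the root mean square (RMS) difference of centred log2 CPM after TMM scaling. For miR-191-5p they were miR-411-3p (RMS 0.07), miR-99b-5p (0.08) and miR-7220-3p (0.08), and its genomic neighbour miR-425-5p came 10th in place. For miR-425-5p they were miR-30a-5p (0.06), miR-1981-5p (0.06) and miR-30b-5p (0.07), with miR-191-5p in place 6. miR-423-3p was nearest to miR-664-5p (0.05), miR-29c-3p (0.05) and miR-704 (0.07), and miR-484 to miR-574-3p (0.06), miR-19a-3p (0.07) and miR-6374 (0.07). miR-320-3p was nearest to miR-142a-5p (0.06), miR-540-3p (0.08) and miR-29a-3p (0.08). miR-423-5p had the least similar neighbours, miR-3093-5p (0.08), miR-666-5p (0.13) and miR-1198-5p (0.14), and its partner arm miR-423-3p was not among its nearest 3. With 4 libraries, near profiles are a description.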

How the data were processed

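Libraries were made with a kit that adds UMIs, QIAseq miRNA, per the labels' protocols. For each mature miRNA the authors deposited a UMI count and a read count, both unnormalized. Their deposited log2 value is the log2 UMI count shifted by a library's own constant (-0.2085 to 0.2153). Per the submitters' processing notes, FastQC 0.11.9 and the build GRCm38/mm10 were used. The aligner and counter were not given in the sources used here. Both libraries of a pool number list the same features. Left out were piRNAs and miRNAs listed for 1 pool number (54 for pool 1, 7 for pool 2). The smallest nonzero count was 10 in pool 1, and 1 (WT) and 2 (KO) in pool 2.

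UMI counts were tested with edgeR 4.0.16 (R 4.3.3): filterByExpr, TMM and the two-sided quasi-likelihood F-test, with a Benjamini-Hochberg threshold of 0.05 over the 1797 miRNAs kept. The pool contrast had genotype in the model and 1 residual degree of freedom. All 6 members passed the filter. SDs used log2 CPM with a prior count of 2. Ratios of 2 libraries have exact conditional binomial intervals and shares exact Clopper-Pearson intervals, which cover counting error only. The labels do not say which animals or days the pools came from. P-values of KO against WT without a block measure the spread between these pools. In models with both genotype and pool number, the spread is how far the pool difference departed between the genotypes. Alternatives were other scalings, other filters, read counts, limma 3.58.1 (voom), DESeq2 1.42.0, pool number as a block, the deposited log2 values and each library left out. The self-test drew counts at known folds. Tables were made with Python 3.11.15 and SciPy 1.17.1. The members and lists were chosen with earlier results of these data known. Beside the 6 members, which were chosen by name, the miRNAs named were their partner arms, those that share a seed with them and those of the lists. From measured values came the 3 nearest profiles of each member and the miRNAs named because a fit called them.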

Additional observations from a re-analysis of the deposited data

Results flagged for a closer look

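In 3 of the 6 miRNAs the genotype difference had opposite signs in the 2 pool numbers, beyond counting error on each side, under at least 1 scaling. Counting error is small for miRNAs as abundant as these. The share of all tested miRNAs that met this criterion was not counted, so it is not shown to be particular to the members. After TMM scaling the KO over WT ratio of miR-191-5p was 1.12 in pool 1 and 0.730 in pool 2, and that of miR-425-5p was 1.42 and 0.784. On total miRNA UMIs miR-191-5p did not turn: its ratio was below 1 in both pool numbers, with an interval that took in 1 in pool 1. miR-425-5p again had opposite signs on totals, at 1.26 and 0.934, and miR-423-5p turned the other way, at 0.865 and 1.35. With 1 library of each genotype per pool number, the difference between pool numbers was not tested.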

How the results depend on the processing

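All 6 miRNAs missed the threshold between genotypes under every alternative run. Calls among all miRNAs went from 0 to 1 scaled on the members, and to 5 on totals and 7 on the members with pool number as a replicate block; leaving out a library gave 0 to 3: miR-129-1-3p and miR-758-5p without WT pool 2, and miR-1931, miR-1946a and miR-493-5p without KO pool 2, named after their values were seen. In each of these 5 calls 1 remaining library stood alone with a count of 0 and was assumed to vary like the other genotype, and the difference has no replicate check. The replicate block with TMM called 0 (78 at an unadjusted p under 0.05). Same-numbered libraries deviated together (r = 0.527 over 1797 miRNAs, 0.6865 over the 352 averaging 100 UMIs or more). These miRNAs are not independent replicates, and 2 pairs do not establish pairing.

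Signs between genotypes reversed as follows (log2). Without WT pool 2 the values were 0.78 (miR-191-5p), 1.03 (miR-425-5p), 0.37 (miR-423-3p) and 0.34 (miR-484), and without KO pool 1 0.17, 0.30, 0.03 and 0.22. Without WT pool 1 they were -0.37 (miR-423-5p) and -0.13 (miR-320-3p), and without KO pool 2 -0.85 (miR-423-5p). Over the 4 omissions the values ran from -0.90 to 0.78 for miR-191-5p, -0.71 to 1.03 for miR-425-5p, -0.55 to 0.37 for miR-423-3p, -0.85 to 0.93 for miR-423-5p, -0.13 to 0.49 for miR-320-3p and -0.55 to 0.34 for miR-484. miR-425-5p was 0.12 on totals, 0.063 on the members, 0.078 with the replicate block, 0.12 and 0.0894 with block and totals or members, 0.037 with voom and 0.0899 from the deposited log2 values. The combined share's difference was 0.00501 points without WT pool 1 and 0.0154 without KO pool 2, and as low as -0.0717 without KO pool 1. In each omission the genotype that lost a library kept a single pool number, and pool number was not in the model. Genotype and pool number thus cannot be fully told apart in those values. The causes were not tested.

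Between pool numbers, calls went from 57 to 150 with RLE, 1316 on totals, 983 on the members, 130 with reads and 136 at a mean of 100 or more UMIs, and, with genotype out of the fit, to 206 and 195 when WT pool 1 or WT pool 2 was left out and to 248 and 209 when KO pool 1 or KO pool 2 was. Reversed signs were -0.019 (miR-425-5p), -0.67 (miR-423-3p), -0.91 (miR-320-3p) and -0.57 (miR-484) on totals, -0.32 (miR-423-3p), -0.56 (miR-320-3p) and -0.22 (miR-484) on the members, and -0.058 (miR-320-3p) at a mean of 100 or more UMIs. With 2 libraries per genotype, the number of libraries limits the precision.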
